A study of Mus musculus with 24 samples.

Results

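Making a ribosome starts in the nucleolus, where RNA polymerase I copies the ribosomal RNA genes into 1 long precursor. Small nucleolar ribonucleoproteins (snoRNPs) guide the chemical modification of that precursor, and separate sets of factors then cut, fold and export the small and the large subunit. Growing fibroblasts spend a large part of their RNA synthesis on this process, and cells without serum reduce it. Described here are 50 mouse genes of the pathway, listed by name in 5 roles: 5 genes of RNA polymerase I transcription, 7 of snoRNPs, 17 small subunit factors, 16 large subunit factors and 5 abundant nucleolar proteins. The genes were taken by symbol from the annotation of the array, each by its brightest probe set over all arrays. In all, 46 of the 50 had a probe set that matched 1 gene only, and all 46 were among the 9908 genes tested, which had an intensity of 20 or more in at least 2 arrays. Fbl, the methyltransferase of box C/D snoRNPs, Tsr1, a small subunit factor, and Mrto4, a large subunit factor, were only on probe sets shared with other genes and have no value here, and Npm3, a nucleoplasmin, was not listed.

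RNA of early passage MEF (mouse embryonic fibroblasts, which are cultured from connective tissue of embryos) was measured on 24 Affymetrix arrays. Cells were held in low serum for 48 h and collected before full medium (0 h) and at 0.5, 1 and 2 h and every 2 h to 30 h after return to 10% serum. The growth protocol gives the low serum as 0.5% and the design text as 0.1%. Unsynchronised cells grown in full medium were the control, and no source used here gives a genotype. There were 2 arrays each at 0, 12, 18 and 24 h and of unsynchronised cells, and 1 array at each of the other 14 times. The duplicates are called biological, but whether they were separate cultures is not stated, and a p-value here reflects only how far duplicate arrays differed, possibly for technical reasons.

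Values are linear RMA intensities, an array brightness that is scaled so that all arrays share 1 distribution. A change is therefore relative to the other transcripts of an array, and fewer cells expressing a gene cannot be told apart from less RNA per cell. Between duplicates the SD on the log2 scale was 0.286 at 0 h and 0.156 to 0.199 in the other duplicated groups, so the starved cells were the least reproducible. On the 26 h array 62.6% of all genes tested lay below both the 24 h and the 28 h level. All 7 measured fibroblast markers had an intensity of at least 485 on every array, but their levels were not constant, and Col3a1 ranged from 485 to 2094. The macrophage and leukocyte markers Lyz2, Cd68 and Fcer1g were also well above the minimum on every array, and 7 of the 8 listed markers passed it, with a summed intensity of 1381 to 1746 at 4 to 8 h and 893 to 964 in unsynchronised cells, against 1533 to 2124 at 0 h. Of 5 endothelial and 5 epithelial markers, 2 and 1 passed the minimum. Endothelial Pecam1 and Emcn and epithelial Epcam and Cdh1 stayed below 10 on every array, Kdr, Tek and Cdh5 reached at most 66.2, 39.9 and 20.5, and the keratins Krt8, Krt18 and Krt19 at most 24.6, 25.8 and 24.9. At 4 to 8 h against 0 h Kdr (1.87) and Krt19 (0.89) were higher and Tek (-1.90) was lower.

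Most of the 46 measured genes were higher at 4 to 8 h after serum than in starved cells. A gene was called changed where the adjusted p from limma was under 0.05 over all 9908 genes tested, and changes are given on the log2 scale, where 1 is a doubling. At 4 to 8 h (the mean of the 4, 6 and 8 h arrays), 41 of the 46 measured genes were higher than at 0 h and 0 were lower, whereas 18.0% of all genes tested were higher and 22.4% lower. The median change of the 46 genes was 0.81, or 1.75-fold, beside -0.03 over all genes tested. In 43 of the 46 genes every 4, 6 and 8 h array lay above both 0 h arrays, as did 21.9% of all genes tested. The 5 genes that were not called were Polr1c, Imp4, Ltv1, Ddx10 and Npm1. The fixed rule named 21 measured genes, and Ltv1, Ddx10 and the further members given below by complex or promoter were added after their values were seen.

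**Figure D1:**
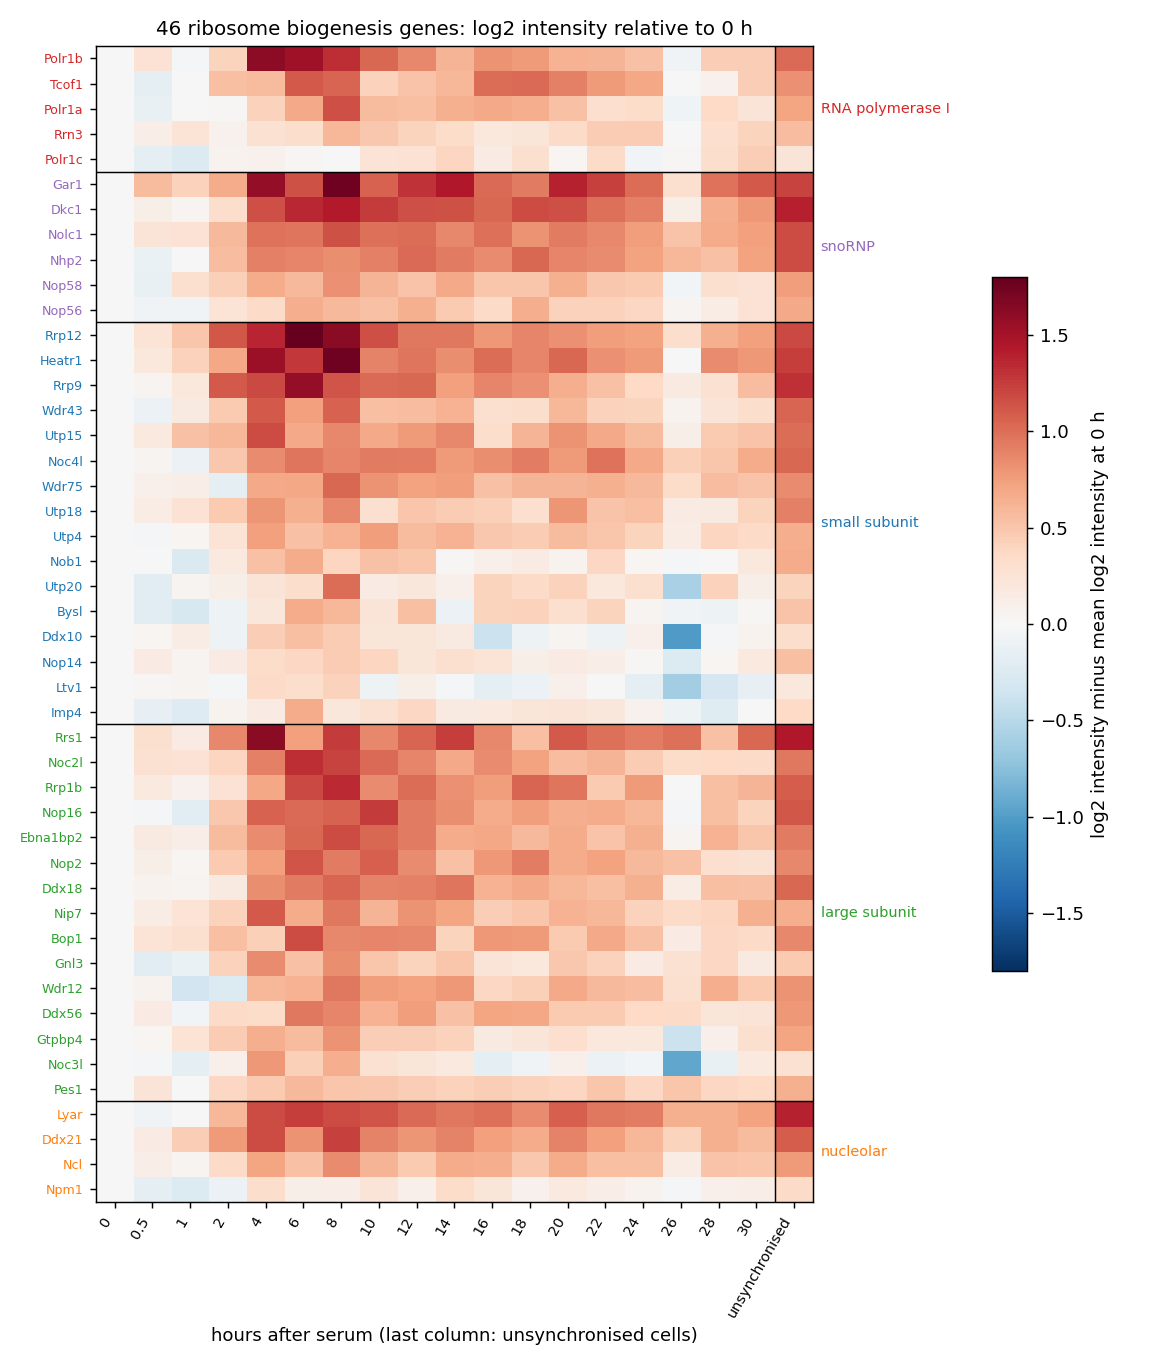
Log2 intensity of the 46 measured genes at each time (columns, in hours, with unsynchronised cells last), as the difference from the mean of the 2 arrays at 0 h (colour). Rows are grouped by role and ordered by the change at 4 to 8 h. Most rows are darkest red at 4 to 8 h, pale at 26 h and red again in unsynchronised cells.

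The polymerase I genes differed widely among themselves. Polr1b encodes the second largest subunit, which shares the active site with the largest. Its intensity was 93.8, 88.5 and 76.8 at 4, 6 and 8 h, against 29.0 and 32.4 at 0 h. The change was 1.49 (SE 0.12, adjusted p = 9.05e-06), or 2.81-fold, and the groups did not overlap. Polr1a, the largest subunit, was highest later, with 112, 135 and 189 at 4, 6 and 8 h, against 103 and 69.2 at 0 h. It changed by 0.75 (SE 0.18, adjusted p = 0.0073), but the 4 h array lay only just above the higher 0 h array. Without the second 0 h array the change of Polr1a was 0.46 with an adjusted p of 0.0542, without the 8 h array 0.55 with an adjusted p of 0.0509, and when only the groups compared were fitted 0.75 with an adjusted p of 0.0601.

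Tcof1 encodes treacle, a nucleolar protein that binds polymerase I and is needed for ribosomal RNA transcription. Its intensity was 104, 151 and 144 at 4, 6 and 8 h, against 76.2 and 64.4 at 0 h. The change was 0.91 (SE 0.17, adjusted p = 0.00196), and a second high level followed at 16 h and 18 h, with 141 on the 16 h array and 162 and 125 at 18 h. Rrn3, the initiation factor that brings polymerase I to its promoter, had 247, 255 and 307 at 4, 6 and 8 h, against 179 and 232 at 0 h. Its change of 0.40 (SE 0.14, adjusted p = 0.0482) was close to the threshold. By adjusted p alone, the call was lost in 16 of 22 alternative analyses. Polr1c, a subunit that polymerases I and III share, had 151, 145 and 141 at 4, 6 and 8 h, against 147 and 138 at 0 h. Its change of 0.03 (SE 0.13, adjusted p = 0.863) was not called, and its highest level, 194, was on the 30 h array.

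**Figure D2:**
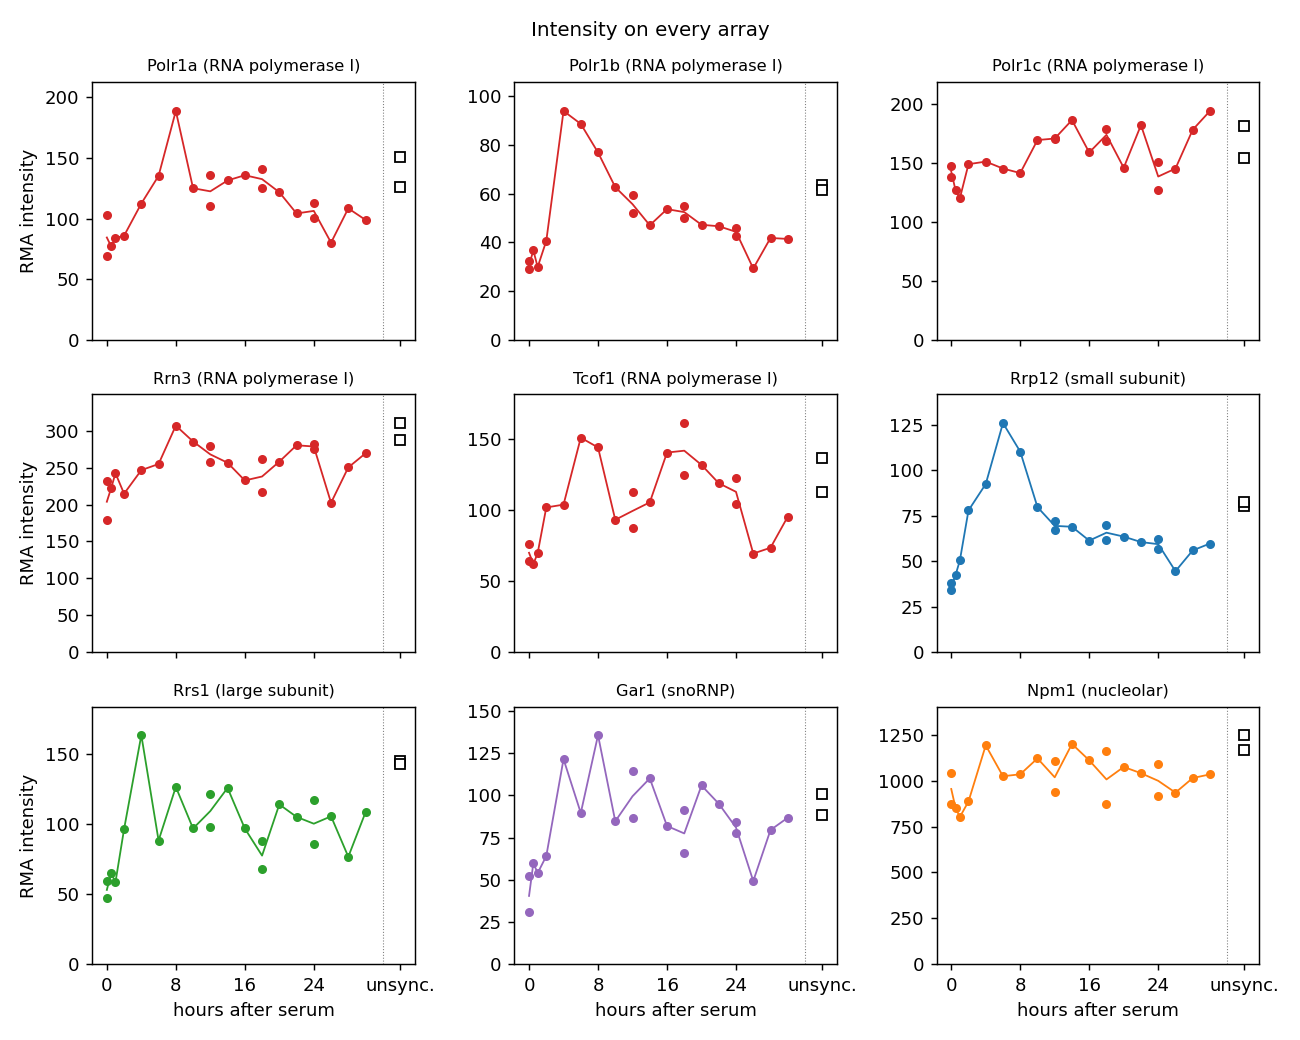
RMA intensity (linear, from 0) of the 5 polymerase I genes and of 4 genes of other roles on every array: filled points for the course in hours after serum, open squares for unsynchronised cells, and a line through the mean at each time. Polr1b and Rrp12 peak at 4 to 6 h and lie below the unsynchronised cells from 14 h on. Over all arrays Polr1c ranges from 120 to 194 and Npm1 from 802 to 1248.

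All 6 measured snoRNP genes were higher at 4 to 8 h. Gar1, a core protein of the box H/ACA particles that direct pseudouridine formation, had 122, 89.6 and 136 at 4, 6 and 8 h, against 31.2 and 52.5 at 0 h. It changed by 1.49 (SE 0.23, adjusted p = 0.00047), and its 0 h arrays stood further apart than those of its partner. That partner, the pseudouridine synthase Dkc1, had 230, 262 and 278 at 4, 6 and 8 h, against 99.7 and 106 at 0 h. Its change was 1.31 (SE 0.14, adjusted p = 5.13e-05), or 2.49-fold. Nolc1, a chaperone of both particle types, changed by 1.03 (SE 0.14, adjusted p = 0.000295). The smallest change was that of Nop56, a core protein of the box C/D particles that direct methylation, with 563, 697 and 663 at 4, 6 and 8 h, against 445 and 439 at 0 h. It came to 0.53 (SE 0.11, adjusted p = 0.00275), again with no overlap, but the call was lost when only the groups compared were fitted (adjusted p = 0.105). Nop58, the partner of Nop56, and Nhp2, of the H/ACA particle, lay between these with 0.69 and 0.87.

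Small subunit factors held both the largest change and most of the genes that were not called. Of 16 measured, 13 were higher. Rrp12, which takes part in the maturation and export of the small subunit, had 92.4, 126 and 110 at 4, 6 and 8 h, against 37.8 and 33.9 at 0 h. The change of 1.60 (SE 0.12, adjusted p = 5.69e-06), or 3.03-fold, was the largest of the 46 genes. Heatr1, part of the complex that joins the nascent precursor first, had 233, 194 and 269 at 4, 6 and 8 h, against 78.1 and 82.4 at 0 h, a change of 1.52 (SE 0.14, adjusted p = 1.74e-05). Rrp9, a protein of the U3 snoRNP, had 91.4, 121 and 88.4 at 4, 6 and 8 h, against 41.1 and 39.3 at 0 h, a change of 1.30 (SE 0.20, adjusted p = 0.000468). In all 3 genes the groups were well apart. Imp4, also of the U3 snoRNP, had 226, 324 and 236 at 4, 6 and 8 h, against 242 and 172 at 0 h. These overlapped, and its change of 0.34 (SE 0.16, adjusted p = 0.116) was not called, although it was 0.59 with an adjusted p of 0.015 without the first 0 h array. Ltv1, a late small subunit factor, had a change of 0.36 (SE 0.14, adjusted p = 0.0565) and Ddx10, a helicase of early processing, 0.48 (SE 0.20, adjusted p = 0.0726). The other 10 small subunit factors were higher by 0.38 (Nop14) to 0.97 (Wdr43).

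Members of 1 complex spanned a range of changes. Heatr1 works with Wdr43, Wdr75, Utp4 and Utp15 in the subcomplex that binds the precursor first. Wdr43 had 684, 532 and 661 at 4, 6 and 8 h, against 307 and 329 at 0 h (0.97, SE 0.13, adjusted p = 0.00023). Utp15 had 191, 136 and 153 at 4, 6 and 8 h, against 73.7 and 96.3 at 0 h (0.91, SE 0.15, adjusted p = 0.000747). Both groups were apart in each gene, and the changes of Wdr75 and Utp4 were 0.80 and 0.63. Noc4l and Nop14, whose yeast counterparts bind each other, had changes of 0.90 (SE 0.16, adjusted p = 0.00109) and 0.38 (SE 0.12, adjusted p = 0.0273). Utp20, a large scaffold protein of the precursor, had 155, 163 and 264 at 4, 6 and 8 h, against 149 and 115 at 0 h, so that the 8 h array stood far above the other times (0.52, SE 0.17, adjusted p = 0.0279). The late factors Bysl and Nob1, of which Nob1 is the nuclease that makes the mature end of the small subunit RNA, were higher by 0.49 (SE 0.12, adjusted p = 0.00845) and 0.52 (SE 0.13, adjusted p = 0.009). At 24 h these 2 genes were at 112 and 113 (Bysl) and 188 and 231 (Nob1), against 115 and 103 (Bysl) and 204 and 203 (Nob1) at 0 h. The changes at 24 h were 0.05 (SE 0.13, adjusted p = 0.827) for Bysl and 0.04 (SE 0.14, adjusted p = 0.884) for Nob1, not called.

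All 15 measured large subunit factors were higher at 4 to 8 h. Rrs1, which in yeast helps to bring the 5S RNA particle into the subunit, had 164, 88.4 and 127 at 4, 6 and 8 h, against 47.6 and 59.3 at 0 h. Its change was 1.20 (SE 0.18, adjusted p = 0.000451), although the 6 h array lay 0.70 below the mean of its neighbours on the log2 scale. Noc2l, whose yeast counterpart takes part in the transport of the large subunit, had 433, 577 and 535 at 4, 6 and 8 h, against 197 and 269 at 0 h. It changed by 1.15 (SE 0.15, adjusted p = 0.000171). Rrp1b, a nucleolar processing factor, was dimmer, with 46.8, 65.6 and 72.7 at 4, 6 and 8 h, against 28.0 and 29.6 at 0 h, and changed by 1.08 (SE 0.14, adjusted p = 0.000148). The smallest change was that of Pes1, which forms a complex with Bop1 and Wdr12. Pes1 had 436, 469 and 446 at 4, 6 and 8 h, against 292 and 339 at 0 h, a change of 0.52 (SE 0.12, adjusted p = 0.00608), whose call was lost when only the groups compared were fitted (adjusted p = 0.12). Its partners Bop1 and Wdr12 were higher by 0.82 and 0.72, and the remaining 9 factors by 0.62 (Noc3l) to 1.05 (Nop16).

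Among these 9, Ebna1bp2, whose yeast counterpart binds that of Rrs1, had 113, 128 and 142 at 4, 6 and 8 h, against 68.8 and 56.8 at 0 h (1.02, SE 0.13, adjusted p = 0.00019). Nop16, an early large subunit factor, had 292, 283 and 290 at 4, 6 and 8 h, against 130 and 149 at 0 h (1.05, SE 0.12, adjusted p = 7.91e-05). Its 3 later arrays were nearly equal and well above the starved cells. Noc3l, the partner of Noc2l in yeast, had 306, 239 and 279 at 4, 6 and 8 h, against 183 and 172 at 0 h (0.62, SE 0.15, adjusted p = 0.00743). By 24 h Noc3l was at 184 and 159, against 183 and 172 at 0 h (-0.06, SE 0.17, adjusted p = 0.836), and its 26 h array stood at 92.8. The GTPases Gnl3 (nucleostemin) and Gtpbp4 were higher by 0.74 and 0.67 at 4 to 8 h, and their changes at 24 h against 0 h, 0.15 (SE 0.17, adjusted p = 0.558) and 0.19 (SE 0.14, adjusted p = 0.351), were not called. The helicases Ddx18 and Ddx56 were higher by 0.94 and 0.72, the methyltransferase Nop2 by 0.94 and Nip7, which binds the large subunit precursor, by 0.91. Ddx18 was still higher at 24 h, with 255 and 239, against 157 and 160 at 0 h (0.64, SE 0.12, adjusted p = 0.00374).

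Of the 4 measured nucleolar proteins, 3 were higher. Lyar, a nucleolar protein of growing cells, had 152, 160 and 152 at 4, 6 and 8 h, against 71.5 and 63.5 at 0 h, a change of 1.20 (SE 0.13, adjusted p = 6.96e-05). Ddx21, a helicase that acts on the precursor, had 535, 417 and 558 at 4, 6 and 8 h, against 244 and 233 at 0 h, a change of 1.07 (SE 0.13, adjusted p = 9.96e-05). Ncl, or nucleolin, had 970, 853 and 1074 at 4, 6 and 8 h, against 589 and 601 at 0 h, a change of 0.69 (SE 0.14, adjusted p = 0.00284). These 3 genes did not overlap between the groups. Npm1, the histone chaperone nucleophosmin, was the brightest of the 46 genes and did. It had 1192, 1024 and 1035 at 4, 6 and 8 h, against 1042 and 875 at 0 h, and its change of 0.18 (SE 0.16, adjusted p = 0.40) was not called.

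The roles overlapped in the size of the change. At 4 to 8 h the median change was 0.75 for polymerase I genes, 0.95 for snoRNP genes, 0.70 for small subunit factors, 0.91 for large subunit factors and 0.88 for nucleolar proteins. Between duplicate arrays the median of a role varied with an SD of 0.11 (snoRNP) to 0.23 (polymerase I). That is the spread of 1 median, not of a difference between roles that are read on the same arrays. With 1 duplicate array left out at a time, the median was 0.642 to 0.713 for small and 0.845 to 0.91 for large subunit factors. Whether these roles differ was not tested, and no test was made of genes as replicates. The polymerase I median rests on 5 genes and was 1.03 without the first 0 h array. Changes of single genes ranged from 0.03 to 1.49 among polymerase I genes, 0.34 to 1.60 among small subunit factors and 0.52 to 1.20 among large subunit factors.

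**Figure D3:**
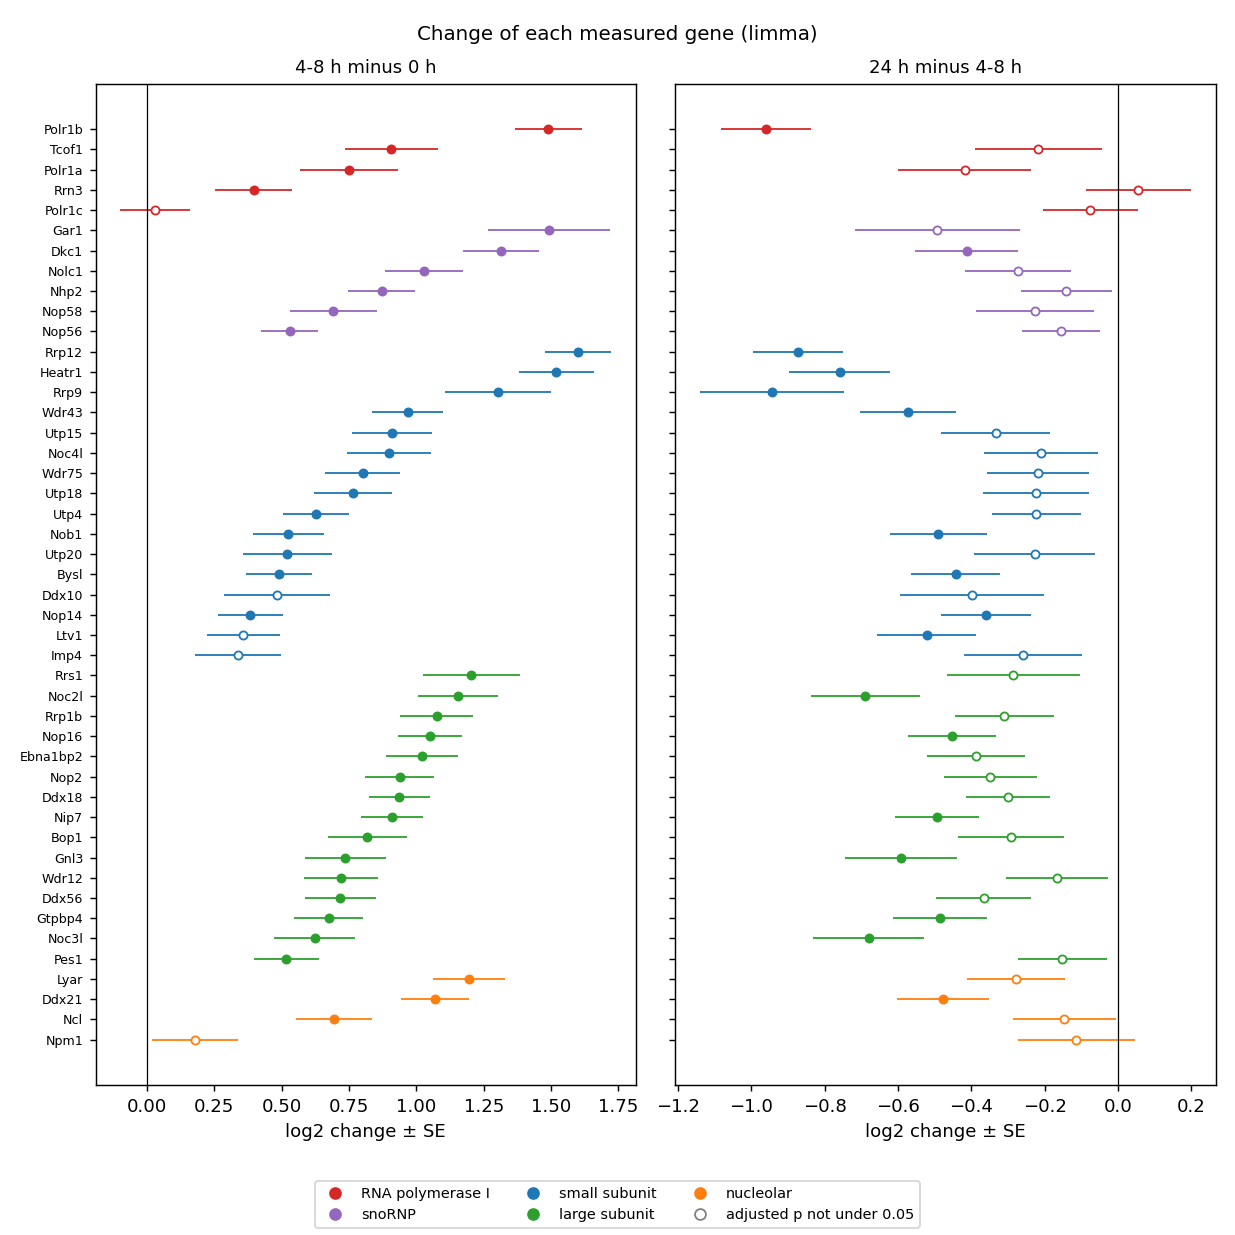
Log2 change with its SE (limma) of each of the 46 measured genes, at 4 to 8 h against 0 h (left) and at 24 h against 4 to 8 h (right), coloured by role. Filled points had an adjusted p under 0.05. On the left 41 points are filled and lie right of 0, and on the right 17 are filled and lie left of 0.

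The rise began between 1 and 4 h. At 0.5 to 1 h, 0 of the 46 genes were higher and 0 lower (1.01% and 0.0706% of all genes tested). At 2 h, which rests on 1 array, 5 were higher and 0 lower (6.28% and 6.80% of all genes tested), a share that is not far from the background. These were Rrp12 (1.12, SE 0.16, adjusted p = 0.00133), Rrp9 (1.10, SE 0.26, adjusted p = 0.0199), Rrs1 (0.86, SE 0.24, adjusted p = 0.0403), Ddx21 (0.76, SE 0.17, adjusted p = 0.0135) and Heatr1 (0.69, SE 0.19, adjusted p = 0.0326). No polymerase I gene was among them. The count at 2 h was 3 without either unsynchronised array, 10 without the second 0 h array and 0 when only the 0 h and 2 h arrays were fitted. The level midway between 0 h and the highest time was passed at a median of 2.7 h. By role it was 2.2 h for snoRNP genes, 2.26 h for nucleolar proteins, 2.7 h for small subunit and 2.74 h for large subunit factors and 4.84 h for polymerase I genes. Within polymerase I the order was Polr1b (2.66 h), Tcof1 (2.93 h), Rrn3 (4.84 h), Polr1a (5.25 h) and Polr1c (9.8 h), which had almost no early change. The F test of limma over all times after 0 h called Polr1b (adjusted p = 0.000585) and Tcof1 (adjusted p = 0.013). It did not call Polr1a (adjusted p = 0.0596), Polr1c (adjusted p = 0.16) or Rrn3 (adjusted p = 0.343). The later polymerase I median of 4.84 h thus rests on genes without a called change over the course. With 1 array at 2, 4 and 6 h no error could be estimated for the midway times, and their order is uncertain.

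The highest level lay at 4 to 8 h in 40 of the 46 genes (87%), beside 27.1% of all genes tested. It was the 4 h array in 7 genes, the 6 h array in 14 and the 8 h array in 19. Polr1b and Rrs1 were highest at 4 h, Rrp12 and Rrp9 at 6 h, and Polr1a, Rrn3, Dkc1, Gar1 and Heatr1 at 8 h. Each of these times is 1 array, so the order within 4 to 8 h is uncertain. On the log2 scale the 6 h array differed from the mean of 4 and 8 h in both directions. The difference was -0.7 for Rrs1, -0.52 for Gar1 and -0.37 for Heatr1, but 0.32 for Rrp12 and 0.42 for Rrp9. Outside 4 to 8 h, 2 genes were highest at 10 h and 1 gene each at 14, 18, 22 and 30 h.

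After 8 h the median of the 46 genes declined, but most genes stayed above the starved level. At 12 h, 34 were higher than at 0 h and 0 lower (18.9% and 11.8% of all genes tested). At 18 h, 29 were higher and 0 lower (15.7% and 14.7%), and at 24 h, 26 were higher and 0 lower (14.5% and 12.0%). The median change was 0.72 at 12 h, 0.60 at 18 h and 0.50 at 24 h. By role, the snoRNP median was 0.99 at 8 h, 1.01 at 12 h and 0.74 at 24 h. At the same times it was 0.86, 0.55 and 0.38 for small and 0.95, 0.85 and 0.53 for large subunit factors. At 24 h, 6 of 7 macrophage and leukocyte markers (median -0.83) and 3 of 7 fibroblast markers (median -0.35) were lower than at 0 h, and 1 fibroblast marker was higher, and their part in the counts was not tested. The counts also lean on single arrays. Without the second 12 h array 22 genes were higher at 12 h, without either 18 h array 19 at 18 h, and without the first 24 h array 14 at 24 h. All comparisons with 0 h share the same 2 arrays. Over all 17 times after 0 h, the F test of limma called 31 of the 46 genes (43.7% of all genes tested), and 29 without the 26 h array.

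**Figure D4:**
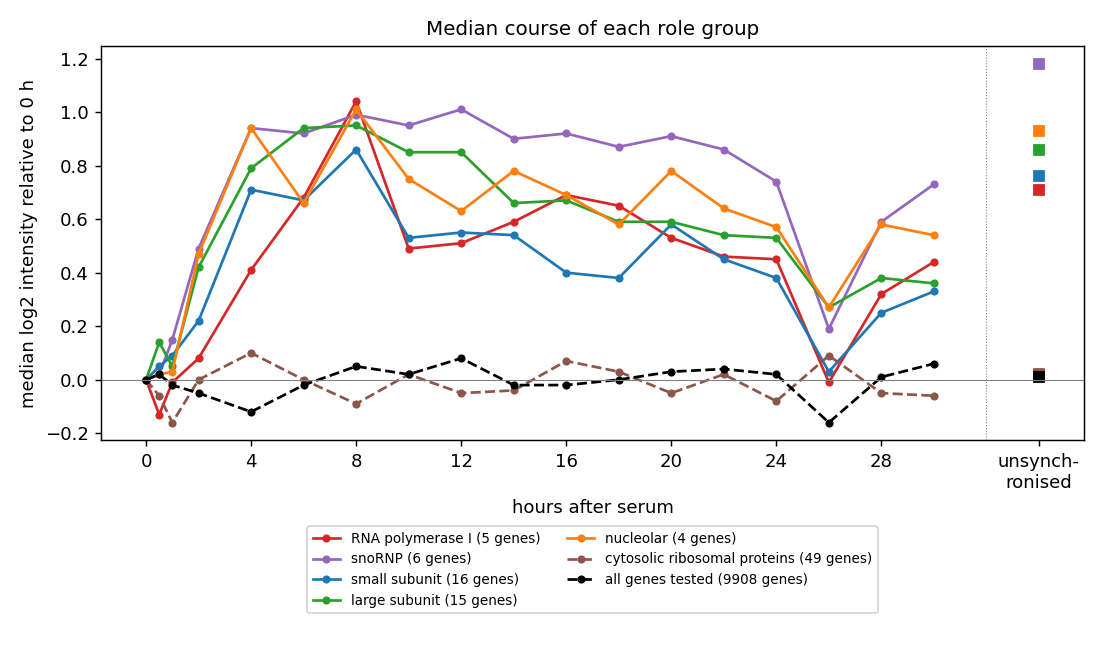
Median log2 intensity of each role relative to 0 h (solid lines) against hours after serum, with cytosolic ribosomal proteins and all genes tested (dashed) and unsynchronised cells as squares on the right. The 5 roles rise to between 0.86 and 1.04 at 8 h, while the ribosomal proteins stay between -0.16 and 0.10.

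The decline differed from gene to gene. At 24 h, 17 of the 46 genes were lower than at 4 to 8 h and 0 were higher (11.4% and 16.3% of all genes tested). Polr1b had 42.7 and 46.0 at 24 h, against 93.8, 88.5 and 76.8 at 4, 6 and 8 h, a change of -0.96 (SE 0.12, adjusted p = 0.000224). Rrp9 changed by -0.94 (SE 0.20, adjusted p = 0.00477), Rrp12 by -0.87 (SE 0.12, adjusted p = 0.000406), Heatr1 by -0.76 (SE 0.14, adjusted p = 0.00214) and Noc2l by -0.69 (SE 0.15, adjusted p = 0.00577). Of the genes that fell, 8 were small subunit factors, 6 large subunit factors and 1 each a polymerase I, snoRNP (Dkc1) and nucleolar gene (Ddx21). By adjusted p alone, the call of Dkc1 (-0.41, SE 0.14, adjusted p = 0.0499) was lost in 12 of 22 alternative analyses. That of Ddx21 (-0.48, SE 0.13, adjusted p = 0.0166) was lost in 3. That of Noc2l was lost without the first 24 h array (-0.61, adjusted p = 0.0575). Lyar (-0.28, SE 0.13, adjusted p = 0.152), Nolc1 (-0.27, SE 0.14, adjusted p = 0.194) and Rrn3 (0.06, SE 0.14, adjusted p = 0.823) were not called. The count fell to 11 without the first and to 6 without the second 24 h array. The macrophage and leukocyte markers moved in the same direction, with 4 of 7 lower at 24 h than at 4 to 8 h and a median change of -0.76, and of 7 fibroblast markers 2 were lower and 1 higher (median -0.25), and their part in the result was not tested.

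On the single 26 h array 37 of the 46 genes lay below both the 24 h and the 28 h level, as did 62.6% of all genes tested. The median difference from the mean of 24 h and 28 h was -0.27 for the 46 genes and -0.19 for all genes tested. Polr1b stood at 29.3 and Heatr1 at 80.2 on this array, between their 2 values at 0 h. At 28 h and 30 h, 41 and 45 of the 46 genes again lay above their mean at 0 h.

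Unsynchronised cells had most of the 46 genes at about the level of the early peak. Against 0 h, 39 of the 46 genes were higher and 0 lower in unsynchronised cells (21.7% and 21.0% of all genes tested), with a median change of 0.84. Rrs1 had 145 and 143 in unsynchronised cells, against 47.6 and 59.3 at 0 h, a change of 1.44 (SE 0.20, adjusted p = 0.000266). Dkc1 had 289 and 253 in unsynchronised cells, against 99.7 and 106 at 0 h, a change of 1.39 (SE 0.15, adjusted p = 6.5e-05). Npm1 (0.34, SE 0.18, adjusted p = 0.144) and Polr1c (0.23, SE 0.14, adjusted p = 0.214) were again not called. Rrn3 was, with 311 and 287 in unsynchronised cells, against 179 and 232 at 0 h (0.55, SE 0.16, adjusted p = 0.0165). Set directly against unsynchronised cells, 2 genes were higher at 4 to 8 h and 0 were lower (12.5% and 14.2% of all genes tested), and the median change was -0.04. The 2 genes were Polr1b, with 93.8, 88.5 and 76.8 at 4, 6 and 8 h, against 63.4 and 61.3 in unsynchronised cells (0.47, SE 0.12, adjusted p = 0.0178), and Rrp12 (0.42, SE 0.12, adjusted p = 0.0279). Neither call was made when either unsynchronised array was left out. Cell type markers differed too: in unsynchronised cells against 0 h, 6 of 7 macrophage and leukocyte markers were lower (median -0.86), and of 7 fibroblast markers 5 were lower and 1 higher (median -0.48, lowest Col3a1 at -1.89). At 4 to 8 h against unsynchronised cells, 6 of 7 macrophage and leukocyte markers (median 1.02) and 4 of 7 fibroblast markers (median 0.40) were higher. Their part in these results was not tested.

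Other genes of the pathway, from lists of further factors, were read from the same fit, in which 18.0% of all genes tested were higher and 22.4% lower at 4 to 8 h than at 0 h. At 4 to 8 h, 24 of 32 other large subunit factors were higher than at 0 h and 1 lower (median 0.69), led by Urb1 (1.27), Tma16 (1.16) and the dynein-like ATPase Mdn1 (1.06), and Nsa2 was lower (-0.34). Of 33 other small subunit factors 19 were higher and 1 lower (median 0.56), led by Pwp2 (1.54), Rcl1 (1.16) and Wdr3 (1.12), and the helicase Ddx52 was lower (-0.38). Other polymerase I factors moved less evenly. Of 11 measured, 3 were higher and 1 lower (median 0.26), not far from the share over all genes tested. The selectivity factor subunit Taf1a was higher (0.74, SE 0.14, adjusted p = 0.00165), as were the polymerase subunits Polr1e (0.57, SE 0.12, adjusted p = 0.00273) and Cd3eap (0.46, SE 0.14, adjusted p = 0.0233), while Taf1b, of the same selectivity factor as Taf1a, was lower (-0.68, SE 0.18, adjusted p = 0.0101).

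RNA polymerase III, RNA polymerase II, the exosome and the ribosomal proteins are set beside the same shares over all genes tested, 18.0% higher and 22.4% lower. Among 9 measured RNA polymerase III subunits 5 were higher and 0 lower (median 0.36), with Polr3g (1.08), Polr3d (1.03) and Polr3e (0.93) leading. Among 10 RNA polymerase II subunits 2 were higher and 1 lower (median 0.12). Polr2e (0.69, SE 0.17, adjusted p = 0.00895) is shared by all 3 polymerases, and the subunit that was lower was Polr2a, the largest subunit of polymerase II (-0.67, SE 0.23, adjusted p = 0.0354). Of 9 RNA exosome genes, which trim the precursor, 3 were higher and 0 lower (median 0.17), with Exosc3 at 0.76. Of 79 cytosolic ribosomal protein genes, 49 were measured, of which 6 were higher and 0 lower (median 0.00), and the largest changes were those of Rpl30 (1.12), Rpl37 (1.01) and Rpl5 (0.90). The shares higher of polymerase II and ribosomal protein genes were near or below that of all genes tested. The other ribosomal protein genes have no value here.

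The promoters of the genes are shown because many growth genes carry an E-box, the sequence CACGTG, which Myc and related factors bind. Promoters of 300 bases, of which 250 lie before the start of the gene, were taken from RefSeq (GRCm38.p6) for 44 of the 50 genes. CACGTG, which reads the same on both strands, was found in 10 of them (22.7%), beside 8.09% of all 27025 promoters in the table and 12.2% of the 7904 that belong to genes tested. By role the count was 7 of 16 small subunit factors, 2 of 14 large subunit factors, 1 of 4 polymerase I genes and 0 of 6 snoRNP and 0 of 4 nucleolar genes. When CACGCG on either strand was accepted too, 23 of the 44 promoters (52.3%) held a match, beside 17.2% of all promoters and 30.3% of those of genes tested. These are matches of letters in a window whose base composition was not matched, not sites of binding. In 4 genes CACGTG lay before the start, and Rrn3 held 2 that do not overlap. The stretches around these matches, before the start only, are given 5′ to 3′ on the strand of the gene, with the E-box in capitals.
Rrn3, chr16:13780460-13780513, plus strand, E-box beginning 215 bases before the start: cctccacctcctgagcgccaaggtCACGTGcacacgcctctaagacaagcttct
Rrn3, chr16:13780627-13780680, plus strand, 48 bases before the start: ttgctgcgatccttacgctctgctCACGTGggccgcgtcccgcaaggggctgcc
Imp4, chr1:34439684-34439737, plus strand, 121 bases before the start: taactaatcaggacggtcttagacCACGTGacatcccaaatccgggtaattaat
Nop2, chr6:125131799-125131852, plus strand, 60 bases before the start: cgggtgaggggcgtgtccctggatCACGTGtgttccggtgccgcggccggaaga
Utp18, chr11:93885767-93885810, minus strand, 20 bases before the start: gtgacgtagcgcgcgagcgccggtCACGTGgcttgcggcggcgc

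At 4 to 8 h against 0 h the changes of Rrn3 and Imp4 were 0.40 and 0.34, while Nop2 had 0.94 and Utp18, a small subunit factor, 0.76. CACGTG lay after the start in Pes1, Utp4, Utp20, Wdr43, Ltv1 and Tsr1, of which Tsr1 has no value here. Only CACGCG, on either strand, was found in Polr1c, Nolc1, Nhp2, Noc2l, Nop16, Nip7, Ddx56, Gtpbp4, Bysl, Utp15, Ddx10, Lyar and Ddx21. Among genes named by the fixed rule, the promoters of Polr1a, Polr1b, Heatr1, Rrp9, Gar1, Dkc1, Nop56, Rrp1b and Ncl held neither sequence in this window. Whether matches and changes go together was not tested.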

How the data were processed

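Array quality was checked by the authors with ArrayQualityMetrics, and RMA (oligo package) was applied to all arrays. Tool versions and the genome build: not given in the sources used here. Intensities were deposited on a linear scale (1.74 to 6335), although a table header names log2, and both deposited tables hold the same values. Log2 was taken here.

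Of 41345 probe sets, 23521 matched 1 gene in the platform annotation and gave 22180 genes. The brightest probe set of a gene was used, and 9908 genes had at least 2 arrays with an intensity of 20 or more. A model with 19 group means was fitted to the 24 arrays in limma 3.58.1 (R 4.3.3). Variances were moderated (prior 5.58, residual 5 degrees of freedom), tests were two-sided, and p-values were adjusted over all genes tested by Benjamini-Hochberg. The number of arrays limits the precision, and single arrays are assumed to vary as the duplicated groups do. The fit was tested on simulated data. Promoters came from RefSeq.

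The members and lists were chosen with earlier results of these data known. Named were all polymerase I genes, the 3 largest and the smallest change of each other role at 4 to 8 h, members with no value, and of further lists up to 3 leading genes and any that was lower. Cd3eap, Twistnb and Znrd1 are the platform's names of Polr1g, Polr1f and Polr1h. Alternatives were other intensity minimums, centring, renewed quantile normalization, a variance trend, the replicate block, only the groups compared, the mean over probe sets, a 2-fold threshold, and single arrays left out. The 2-fold threshold was applied to counts of genes, not to calls of single genes. The values without the 26 h array were added after seeing the data.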

Additional observations from a re-analysis of the deposited data

How the results depend on the processing

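No role median and no called change of a named gene changed direction under any alternative. Of changes that were not called, that of Polr1c crossed 0 (-0.017 at 4 to 8 h against 0 h without the second 0 h array, 0.051 at 24 h against 4 to 8 h without the first 24 h array), as did those of Npm1 (0.01 without the second 24 h array) and Rrn3 (-0.005 without the 4 h array) at 24 h against 4 to 8 h. For named genes there were 42 results (21 genes at 4 to 8 h against 0 h and at 24 h against 4 to 8 h). By adjusted p alone, 31 kept their call in every alternative, 7 lost it in at least 1 and 4 gained one in at least 1. The 2-fold threshold, although among the 22 alternatives, was not applied to these calls, so they leave out the calls it would remove. On the same basis, calls of Rrn3 at 4 to 8 h and of Dkc1 at 24 h were lost in 16 and 12 of 22 alternatives. Requiring a 2-fold change left 2 genes higher at 2 h, 14 at 4 to 8 h, 8 at 12 h, 4 at 18 h, 1 at 24 h and 17 in unsynchronised cells, each against 0 h, with 0 higher at 4 to 8 h against unsynchronised cells and 0 lower at 24 h against 4 to 8 h. Fitting only the groups compared left 0 higher at 2 h and 10 at 24 h, and a variance trend with robust moderation gave 8 at 2 h. Without the 4 h or without the 6 h array, 1 gene was higher at 4 to 8 h than in unsynchronised cells. Leaving out 1 duplicate array at a time gave 0 to 1 genes higher at 0.5 to 1 h, 3 to 10 at 2 h, 39 to 41 at 4 to 8 h, 22 to 34 at 12 h, 19 to 31 at 18 h, 14 to 25 at 24 h and 34 to 40 in unsynchronised cells. It gave 6 to 22 lower at 24 h against 4 to 8 h, and 0 to 2 higher and 0 to 1 lower at 4 to 8 h against unsynchronised cells. In the same way the median change ranged from 0.58 to 1.03 for polymerase I genes at 4 to 8 h against 0 h. At 24 h against 4 to 8 h it ranged from -0.40 to -0.17 for snoRNP genes and from -0.336 to -0.088 for nucleolar proteins. Accepting CACGCG as well moved the share of promoters with a match to 52.3%. The causes of these differences were not tested, and a fit without an array or of only the groups compared also rests on fewer arrays. The differences between duplicates had correlations of -0.369 to 0.224 from group to group. With a single difference per group, these cannot show whether the duplicate numbers pair arrays. With the replicate block 40 genes were higher at 4 to 8 h, 4 at 2 h, 32 at 12 h, 28 at 18 h and 24 at 24 h. With that block 15 were lower at 24 h against 4 to 8 h.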
